A study of Mus musculus with 19 samples.

Results

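Transcripts of 6 cysteine protease inhibitor genes, the stefins Stfa2, Stfa2l1, Stfa3 and Cstb and the cystatins Cst3 and Cst7, were followed across 5 bulk RNA-seq libraries of mouse bone marrow monocytes. The genes were picked by symbol from the 33559 rows of the expression table, and all 6 symbols were found. The series has 19 samples. Its 14 single-cell samples of wild-type and Cxcr2 KO mouse skin were not analysed here. The control group (BM_Mono_noGCSF, replicates 1 and 2) was wild type with no treatment. The G-CSF group (BM_Mono_GCSF, replicates 1 to 3) was wild type and received G-CSF, a growth factor for granulocytes and their precursors. Dose, route, duration, animal age and the way monocytes were isolated are not given in the sources used here, nor whether replicates came from separate animals, so any p-value measures only the spread between these samples, which may be technical. The 6 genes were chosen with the G-CSF difference of these same libraries already known. Their differences between groups are therefore given as a description, with no test.

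Cystatins block papain-like cysteine proteases, above all the lysosomal cathepsins, by inserting a wedge of conserved residues into the active site. Stefins lack a signal peptide and work in the cytosol and nucleus, whereas the cystatins encoded by Cst3 and Cst7 enter the secretory pathway. In mice the stefin A genes have multiplied into a cluster on chromosome 16 and are known as transcripts of neutrophils and other myeloid cells. Loss of human CSTB causes a progressive myoclonus epilepsy. Cystatin C, the product of Cst3, is abundant in body fluids and serves as a marker of kidney filtration, and cystatin F, the product of Cst7, is made by immune cells, reaches the endolysosome and inhibits cathepsin C, the protease that activates granule serine proteases.

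The hallmark of the family is a glutamine-any-valine-any-glycine loop that enters the protease. The coding sequences of GENCODE M21 held this pattern exactly 1 time in each of the 6 genes, at codons 52 to 56 of Stfa2, Stfa2l1 and Stfa3, 46 to 50 of Cstb, 75 to 79 of Cst3 and 80 to 84 of Cst7. The stretches below, 5′ to 3′ on the coding strand, show what the members have in common, with the codons for glutamine, valine and glycine in capitals.
Stfa2: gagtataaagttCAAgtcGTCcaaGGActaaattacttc
Stfa2l1: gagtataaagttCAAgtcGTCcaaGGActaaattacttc
Stfa3: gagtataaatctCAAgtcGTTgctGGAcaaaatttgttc
Cstb: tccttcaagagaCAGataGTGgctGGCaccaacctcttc
Cst3: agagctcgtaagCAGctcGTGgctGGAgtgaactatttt
Cst7: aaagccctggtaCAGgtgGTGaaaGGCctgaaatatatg
Stfa2 and Stfa2l1 were identical over this stretch, and Stfa3 differed from both. Over their whole coding sequences of 312 bases, Stfa2 and Stfa2l1 were 96.5% identical, while Stfa3 was 81.1% identical to Stfa2 and 81.7% to Stfa2l1. Cstb was 60.5% identical to Stfa2 over 291 aligned bases.

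Expression values were in the unit FPKM, a count of fragments divided by the length of the gene and by the size of the library. The reads behind each value could be recovered because FPKM times gene length was a whole multiple of a fixed step in each library. Recovered reads, a lower bound of depth, ranged from 2923791 in control replicate 2 to 6988850 in G-CSF replicate 1. Every library but control replicate 2 had 5911194 reads or more. Despite its low depth, control replicate 2 had the most genes above 0, at 29425 against 24361 to 26073 in the others. Its FPKM values also had the largest sum, at 3299131 against 392646 to 1577090. The cause of this unlike profile was not tested. Classical monocyte markers (8 of 8, among them Ly6c2, Ccr2 and Csf1r) were above 0 in all 5 libraries, with summed levels of 1380 to 3754 FPKM in controls and 3102 to 5623 FPKM with G-CSF. All 10 neutrophil markers were above 0 in every library too. They summed to 11248 and 2110 FPKM in control replicates 1 and 2, and to 4211 to 6459 FPKM with G-CSF. Other lineages were also present, with sums in the 2 control libraries and then the range with G-CSF as follows. Tissue macrophage markers summed to 483 and 1471 against 723 to 1218 FPKM, and B cell markers to 175 and 89.9 against 43.0 to 61.8 FPKM. Eosinophil and basophil markers summed to 210 and 329 against 94.3 to 130 FPKM, and non-classical monocyte markers to 112 and 92.3 against 65.2 to 91.5 FPKM. The 5 erythroid markers above 0 in every library summed to 1351 and 351 FPKM in the controls and to 88.9, 780 and 112 FPKM in G-CSF replicates 1, 2 and 3. Dendritic cell markers stayed between 17.8 and 29.5 FPKM and T and NK cell markers between 7.68 and 13.1 FPKM over all libraries. Among the markers of these lineages, Ace, Cd3d and Ncr1 had a value of 0 in some library. In such bulk samples, fewer cells of a type and less RNA per cell cannot be told apart.

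Stfa2, a stefin A gene (chromosome 16, 36403992 to 36408457, minus strand, GRCm38), was nearly silent in the controls and present in every G-CSF library. It measured 0.228 and 0 FPKM in control replicates 1 and 2, and 13.1, 18.6 and 12.2 FPKM in G-CSF replicates 1, 2 and 3. These values stand for 1 and 0 reads in the controls and 53, 85 and 43 reads with G-CSF, so the groups did not overlap but the control level rests on 1 read. The 0 of control replicate 2 allows up to 1.84 FPKM, the worth of 3 reads in that library. Over pooled libraries the G-CSF to control ratio of reads per library size was 89.5, with an exact 95% interval of 15.9 to 3556 that covers counting error only. The difference in mean log2(FPKM + 1) was 3.79 ± 0.28 (SE, n = 3 and 2), a scale that understates changes of low genes. It was 6.32 with a pseudocount of 0.1 in place of 1 and 1.93 with a pseudocount of 5.

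Stfa2l1, the closest relative of Stfa2 among the 6 genes (chromosome 16, 36156811 to 36161953, plus strand), was the most abundant stefin A transcript in the G-CSF libraries. It measured 14.6 and 1.38 FPKM in control replicates 1 and 2, from 57 and 2 reads, and 30.5, 62.3 and 29.0 FPKM with G-CSF, from 110, 254 and 91 reads. All 3 G-CSF libraries lay above both controls, but the controls themselves differed 10.6-fold. The difference in mean log2(FPKM + 1) was 2.68 ± 0.83 (SE). Leaving out control replicate 2 gave 1.32, and leaving out control replicate 1 gave 4.04. In the controls, markers of neutrophils were likewise higher in replicate 1 than in replicate 2, by 3.52-fold for the surface antigen Ly6g and 7.995-fold for the calprotectin subunit S100a8. The classical monocyte markers Ccr2 and Ly6c2 were higher in control replicate 1 too, by 3.09-fold and 2.78-fold. Tissue macrophage markers went the other way in sum, at 483 FPKM in control replicate 1 and 1471 FPKM in control replicate 2. The part of these cell types in the Stfa2l1 values was not tested.

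Stfa3 (chromosome 16, 36450537 to 36455392, minus strand) was low everywhere and was the only member whose groups overlapped. It measured 0.261 and 2.10 FPKM in the controls and 5.65, 1.997 and 2.92 FPKM with G-CSF. G-CSF replicate 2 thus lay below control replicate 2. No library had more than 20 reads of Stfa3, and the controls had 1 and 3. The pooled read ratio was 4.58 with an exact 95% interval of 1.64 to 17.7, and the difference in mean log2(FPKM + 1) was 1.11 ± 0.51 (SE). It came to 0.46 when control replicate 1 was left out and to 1.76 when control replicate 2 was.

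**Figure D1:**
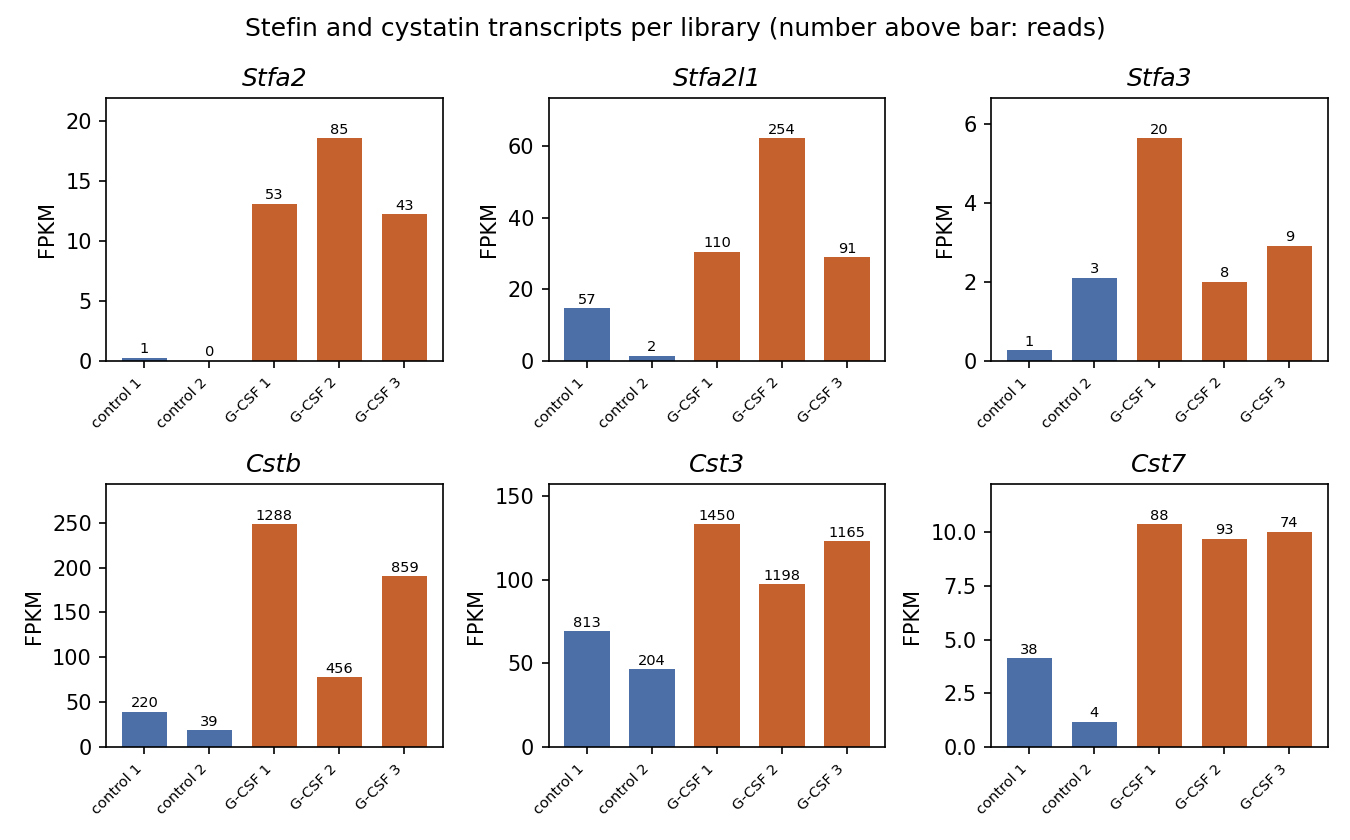
FPKM of each member in the 2 control libraries (blue) and the 3 G-CSF libraries (orange), 1 bar per library, on a linear axis from 0. The number above each bar is the number of reads behind it, from 0 for Stfa2 in control replicate 2 to 1450 for Cst3 in G-CSF replicate 1.

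All 6 members passed the filter on low values (FPKM of 1 or more in 2 or more libraries), Stfa2 by its G-CSF libraries alone. In 5 of the 6, every G-CSF library lay above both controls, as it did for 20.0% of the 16791 genes tested, and in 0 of the 6 was every G-CSF library below both controls, as for 11.9% of genes tested. Nothing is read from that count, because this contrast served to choose the genes.

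The promoters of the 3 stefin A members are printed because these genes sit in 1 cluster and their sequences are alike around the start site. Each holds 250 bases before and 50 after the start from the RefSeq promoter table (GRCm38.p6), on the gene's strand, at chr16:36408314-36408613 (minus) for Stfa2, chr16:36156561-36156860 (plus) for Stfa2l1 and chr16:36455343-36455642 (minus) for Stfa3. Capitals mark matches, on either strand, to the letters TTNNGNAA (C/EBP) or GAGGAA (PU.1).
Stfa2: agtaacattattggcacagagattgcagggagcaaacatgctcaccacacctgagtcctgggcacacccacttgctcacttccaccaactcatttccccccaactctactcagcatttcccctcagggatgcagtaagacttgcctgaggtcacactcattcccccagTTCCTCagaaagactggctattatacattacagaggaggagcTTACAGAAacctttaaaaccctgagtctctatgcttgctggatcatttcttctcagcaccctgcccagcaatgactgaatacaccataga
Stfa2l1: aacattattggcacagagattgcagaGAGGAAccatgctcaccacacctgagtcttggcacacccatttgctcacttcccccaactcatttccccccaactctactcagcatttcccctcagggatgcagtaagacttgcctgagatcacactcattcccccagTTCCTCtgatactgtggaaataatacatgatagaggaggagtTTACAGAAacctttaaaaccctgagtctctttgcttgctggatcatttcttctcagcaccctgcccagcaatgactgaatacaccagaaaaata
Stfa3: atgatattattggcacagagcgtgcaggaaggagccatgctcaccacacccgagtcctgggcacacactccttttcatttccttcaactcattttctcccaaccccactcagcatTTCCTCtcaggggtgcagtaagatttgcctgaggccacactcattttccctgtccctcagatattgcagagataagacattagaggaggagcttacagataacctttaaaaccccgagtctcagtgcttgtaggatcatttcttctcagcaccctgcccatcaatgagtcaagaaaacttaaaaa
Stfa2 and Stfa2l1 promoters were 92.9% identical, and Stfa3 was 82.2% and 82.8% identical to them. A C/EBP match stood 40 and 44 bases before the start in Stfa2 and Stfa2l1, and Stfa3 had none in this window. Such a match occurred in 40.7% of 32851 promoters of the same length. PU.1 letters were present in all 3 and in 28.3% of promoters, and the STAT letters TTCNNNGAA were in none of the 3 and in 8.3% of promoters. A run of 28 bases over the start site, ggatcatttcttctcagcaccctgccca, was shared by the 3 promoters and found in no other of the 32851. These matches describe letters and are not evidence of binding.

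The stefin A cluster spans 299 kilobases of chromosome 16 (36156811 to 36455392, RefSeq, GRCm38) and held 9 measured genes. Its 6 genes outside the members, Stfa1, Csta2, Csta3, Cstdc4, Cstdc5 and Cstdc6, are stefin A-like genes, and they made up all tested genes of a list of other cystatin-fold genes. Of that list, 10 genes were in the table and 6 could be tested, the others (Csta1, Cst6, Ahsg and Kng2) being at or near 0 in all 5 libraries. By limma with Benjamini-Hochberg adjustment over all genes, 0 of the 6 passed in either direction, against 0.00596% of all genes called higher and 0% called lower. At an unadjusted p under 0.05, 5 were higher and 0 lower, where 7.90% of all genes were higher and 4.76% lower. Of the 5, Stfa1, Csta2, Cstdc5 and Cstdc6 were under 1 FPKM in both controls and passed the filter through their G-CSF libraries alone, so the count is not read against those shares. Voom on the recovered reads also called 0 in either direction after adjustment, where it called 0.0544% of 14699 genes higher and 0.0136% lower. At the unadjusted threshold it had 5 higher and 0 lower, where 7.69% of genes were higher and 4.89% lower. These genes lie beside the members and share sequence with them and each other, so the 5 are not independent.

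Csta2 measured 0.842 and 0 FPKM in the controls and 9.47, 13.7 and 5.02 FPKM with G-CSF, a difference in mean log2(FPKM + 1) of 2.84 ± 0.47 (SE; limma adjusted p = 0.21, 0.0174 to 0.764 over the alternatives). Cstdc4 measured 2.37 and 1.08 FPKM against 9.06, 13.7 and 5.74 FPKM, a difference of 1.91 ± 0.41 (SE; limma adjusted p = 0.255, 0.0272 to 0.873 over the alternatives). Both had every G-CSF library above both controls. Stfa1 and Cstdc5, whose coding sequences were 98.0% identical, gave nearly the same number of reads in each library. Stfa1 had 6 and 0 reads in the controls and 34, 57 and 29 with G-CSF, and Cstdc5 had 5 and 0 against 34, 56 and 30. How the authors counted reads that match both is not given in the sources used here, so neither count can be assigned to its gene alone. Their differences in mean log2(FPKM + 1) were 2.41 ± 0.36 and 2.37 ± 0.32 (SE; limma adjusted p = 0.179 and 0.176). Cstdc5 passed when protein-coding genes alone were tested (limma adjusted p = 0.0438), and 5 of the 6 genes passed without control replicate 1, which leaves control replicate 2 with its 14 cluster reads as the lone control and calls 2834 genes higher over the whole table. Cstdc6 reached no more than 1.80 FPKM. Csta3 had 0 and 1.96 FPKM in the controls and 0, 2.10 and 0.909 FPKM with G-CSF, from at most 6 reads, and showed no difference that could be detected at this depth (0.07 ± 0.65, SE).

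**Figure D2:**
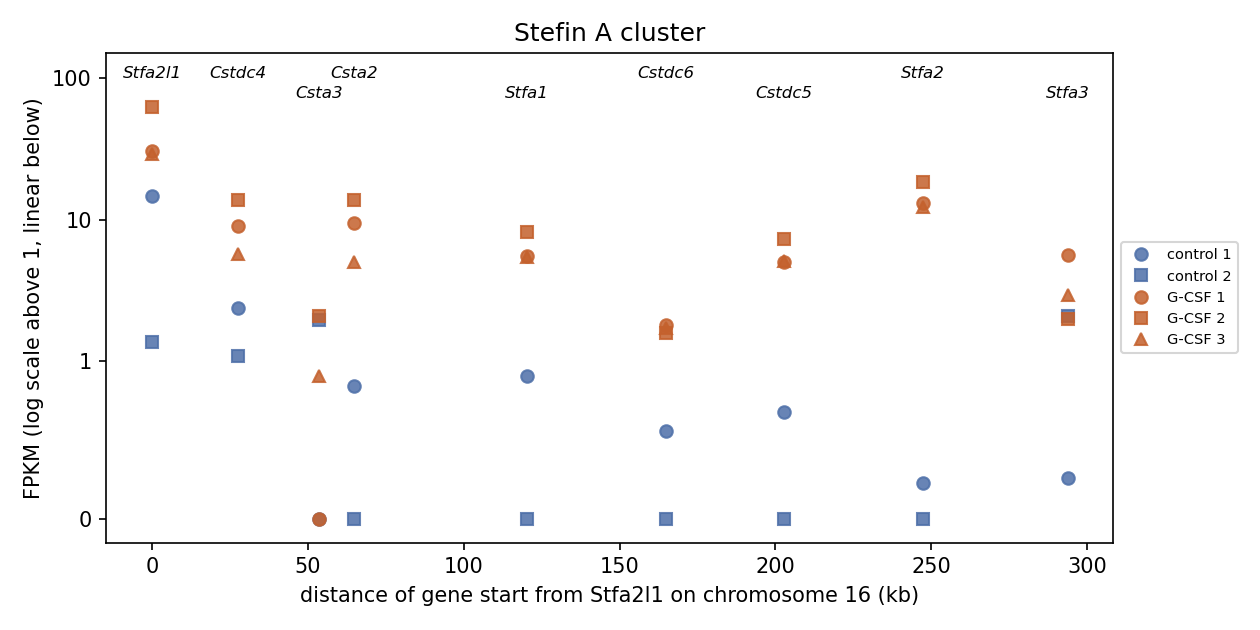
FPKM of the 9 stefin A cluster genes, placed by the distance of their lower coordinate from that of Stfa2l1, in control (blue) and G-CSF (orange) libraries, with a symbol for each replicate number. The axis is logarithmic above 1 FPKM and linear below. The G-CSF symbols stand above both controls at 7 of the 9 genes, the exceptions being Csta3 and Stfa3. Over all genes tested, 20.0% had every G-CSF library above both controls. Nothing is read from the count at the cluster. Stfa2 and Stfa2l1 were chosen with this contrast known. Stfa1, Csta2, Cstdc5 and Cstdc6 passed the filter on low values through their G-CSF libraries alone.

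Summed over the 9 genes, the cluster gave 118 and 14 reads in control replicates 1 and 2, and 454, 805 and 313 reads with G-CSF. The make-up of the cluster within a library does not depend on scaling between libraries. Stfa2 supplied 0.847% of cluster reads in control replicate 1 (exact 95% interval 0.0215 to 4.63) and 11.7%, 10.6% and 13.7% in the G-CSF libraries, whose intervals start at 8.87, 8.52 and 10.1. Stfa2l1 supplied 48.3% in control replicate 1 (39.0 to 57.7) and 24.2%, 31.6% and 29.1% with G-CSF, with upper bounds of 28.4, 34.9 and 34.4. In control replicate 2, with 14 reads, Stfa2 supplied 0% (0 to 23.2) and Stfa2l1 14.3% (1.78 to 42.8). For Stfa2l1, control replicate 1 thus lay above all G-CSF libraries and control replicate 2 below them. These intervals cover counting error only, and replicates differed by more than that. The Stfa2 share in control replicate 1 rests on 1 read. Both genes were chosen with the group difference known, so the intervals are a description and no test between groups.

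Reads of 50 bases could be confused between some members and not others. Of the 50-base words in the Stfa2 transcript, 15.9% also occur in transcripts of other genes, and 24.6% of those of Stfa2l1 do. For each of the pair, the other was the gene that shared the most words. For Stfa3, Cstb, Cst3 and Cst7 the share was 0.0%. At 100 bases no word of any member was shared. The read length is not given in the sources used here, so values of Stfa2 and Stfa2l1 carry this uncertainty. No other annotated gene overlapped a member in GENCODE M21.

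Cstb, which encodes stefin B, the broadly expressed intracellular inhibitor (chromosome 10, 78425669 to 78427622, plus strand), had the highest mean level of the members with G-CSF. It measured 39.2 and 18.7 FPKM in the controls, from 220 and 39 reads. With G-CSF it measured 248, 77.8 and 190 FPKM, from 1288, 456 and 859 reads. Every G-CSF library lay above both controls, and the G-CSF libraries differed among themselves by up to 3.19-fold. The difference in mean log2(FPKM + 1) was 2.47 ± 0.61 (SE), and lay between 1.95 and 2.98 under the alternatives. By level, Cstb ranked 892 and 2544 among all rows of control replicates 1 and 2 and 188, 525 and 230 in the G-CSF libraries.

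Cst3, encoding cystatin C (chromosome 2, 148871722 to 148875692, minus strand), was the most abundant member in both controls. It measured 69.1 and 46.5 FPKM in the controls and 133, 97.3 and 123 FPKM with G-CSF. These rest on 204 to 1450 reads. All 3 G-CSF libraries lay above both controls. The difference in mean log2(FPKM + 1) was 1.03 ± 0.34 (SE), and 0.72 after quantile normalization. Actb, the cytoskeletal actin gene, had nearly the same profile. Cst3 FPKM was 0.0417 and 0.0401 times that of Actb in the controls and 0.0432, 0.0439 and 0.0447 times with G-CSF.

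Cst7, encoding cystatin F (chromosome 2, 150570415 to 150578944, plus strand), measured 4.15 and 1.17 FPKM in the controls, from 38 and 4 reads. It measured 10.4, 9.70 and 10.0 FPKM with G-CSF, from 88, 93 and 74 reads. The G-CSF libraries agreed to within 1.07-fold, the narrowest spread of the 6 genes, while the controls differed 3.54-fold. All 3 G-CSF libraries were above both controls. The difference in mean log2(FPKM + 1) was 1.72 ± 0.39 (SE). Leaving out 1 control gave 1.10 (replicate 2 out) or 2.35 (replicate 1 out).

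Ordered by mean FPKM, the controls ran Cst3, Cstb, Stfa2l1, Cst7, Stfa3, Stfa2. The ranges of Stfa2l1 and Cst7 and of Cst7 and Stfa3 overlapped. With G-CSF the order was Cstb, Cst3, Stfa2l1, Stfa2, Cst7, Stfa3, in which only the ranges of Cstb and Cst3 overlapped. With G-CSF, Stfa2 stood above Cst7 in 3 of 3 libraries. Its last place in the controls is not resolved, as it had 1 and 0 reads there and Stfa3 had 1 and 3. The 0 of Stfa2 in control replicate 2 allows up to 1.84 FPKM, above the 1.17 FPKM of Cst7 there. All members were chosen with the group difference known, so nothing is read from the change of order. The ratio of Cstb to Cst3 FPKM within a library was 0.568 and 0.401 in the controls and 1.86, 0.799 and 1.55 with G-CSF, without overlap. Nothing is read from that, because both genes were chosen with the group difference known. Cst3 made up 54.1% and 66.6% of the summed FPKM of the 6 members in the controls and 30.2%, 36.4% and 33.5% with G-CSF.

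The members fell into different patterns among the G-CSF libraries. Stfa2 and Stfa2l1 were highest in replicate 2, whereas Cstb, Cst3, Cst7 and Stfa3 were lowest there. Across the stefin A cluster, 7 of 9 genes were highest in replicate 2. Of the neutrophil markers, 8 of 10 were highest in that library, among them Ly6g at 25.0 FPKM against 9.88 and 12.2 FPKM in replicates 1 and 3, and Cxcr2 at 119 against 61.6 and 53.2 FPKM. Among 8 tissue macrophage markers, 7 were lowest in replicate 2, including the complement gene C1qa at 109 against 203 and 300 FPKM in replicates 1 and 3. Over all 16779 tested genes whose symbol occurs 1 time in the table, 39.6% were highest and 40.7% lowest in replicate 2. Erythroid markers were likewise highest in sum in replicate 2 among the G-CSF libraries. Between groups, 6 of the 10 neutrophil markers had a positive difference with G-CSF. Of these 10, 1 had every G-CSF library above both controls and 1 had every one below. Classical monocyte markers were positive in 8 of 8, with 6 above both controls in every G-CSF library and 0 below. B cell markers were positive in 0 of 6, with 3 below both controls in every G-CSF library and 0 above. Over all genes tested, those shares were 20.0% above and 11.9% below. Ly6g measured 54.9 and 15.6 FPKM in the controls and Cxcr2 55.7 and 11.2 FPKM. The part of neutrophil, classical monocyte, macrophage, B cell and erythroid transcripts in these patterns was not tested.

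**Figure D3:**
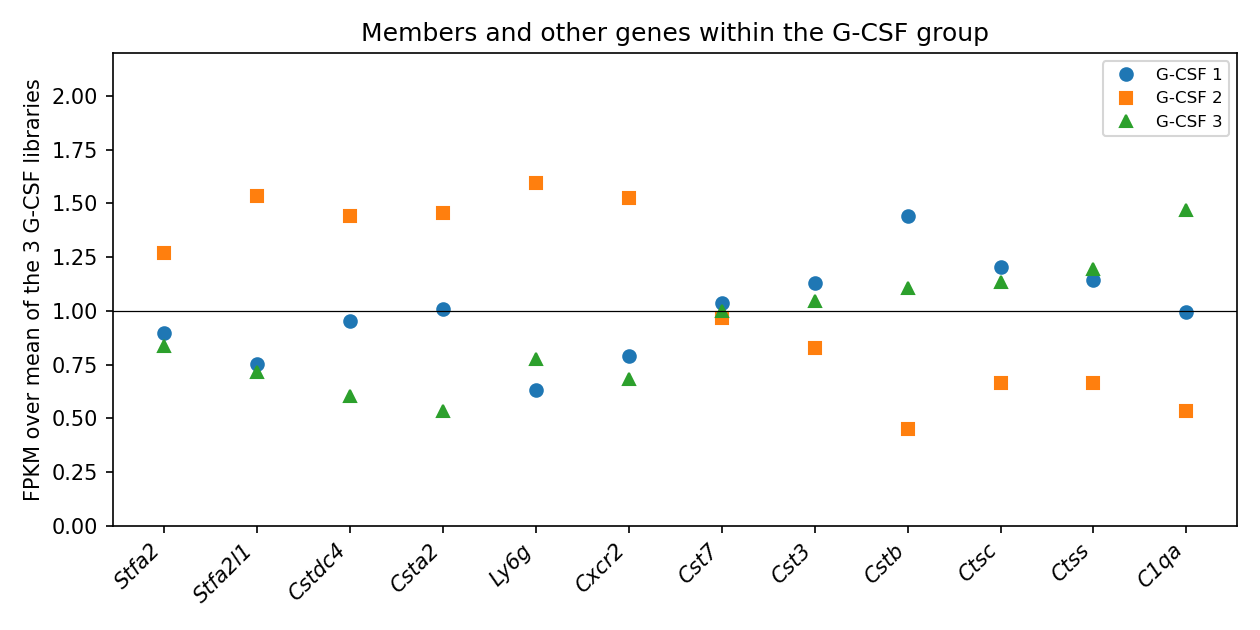
FPKM of 5 members and 7 other genes in each G-CSF library, divided by the mean of the 3 G-CSF libraries, on a linear axis from 0; the genes were picked after their values were seen. Replicate 2 (squares) stands highest for the stefin A genes shown, Ly6g and Cxcr2 and lowest for Cst7, Cst3, Cstb, Ctsc, Ctss and C1qa.

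A list of cysteine proteases was examined next, 10 cysteine cathepsins and legumain (Lgmn), of which all but Ctsf could be tested. Which of them each member inhibits was not tested. By limma 0 of 10 passed over all genes in either direction, beside 0.00596% of all genes called higher and 0% called lower. At an unadjusted p under 0.05, 2 were higher (Ctsc and Ctsl) and 0 lower, beside 7.90% and 4.76% of all genes. Voom on recovered reads called 0 after adjustment, beside 0.0544% of all genes higher and 0.0136% lower. At the unadjusted threshold it had 5 higher and 0 lower, beside 7.69% and 4.89% of all genes. The median difference in mean log2(FPKM + 1) was 0.82 over the 10, beside 0.08 over all 16791 genes. Ctsc, which encodes cathepsin C, measured 11.04 and 8.69 FPKM in the controls and 68.0, 37.4 and 64.0 FPKM with G-CSF. All 3 G-CSF values were above both controls, and the difference of 2.37 ± 0.35 (SE) missed the threshold (limma adjusted p = 0.179, 0.0173 to 0.764 over the alternatives). It passed without control replicate 1 only. Cathepsin L (Ctsl) measured 11.6 and 21.9 against 66.8, 39.2 and 53.8 FPKM (1.65 ± 0.39, SE; limma adjusted p = 0.261, 0.0558 to 0.925 over the alternatives).

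Ctss, the cathepsin that trims the MHC class II invariant chain, and Ctsb, an abundant lysosomal cathepsin, were the most highly expressed of the list. Ctss measured 497 and 467 FPKM in the controls and 1139, 660 and 1190 FPKM with G-CSF. For Ctsb the values were 441 and 390 against 649, 577 and 725 FPKM. Neither passed (limma adjusted p = 0.446 and 0.518). In G-CSF replicate 2, 10 of the 11 proteases had their lowest value of the 3 G-CSF libraries. So did 4 of the 6 members, Cstb among them, and 7 of 8 tissue macrophage markers. Over all 16779 tested genes whose symbol occurs 1 time in the table, 40.7% were lowest there. The cause was not tested.

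Inhibitor and protease levels were set side by side within libraries. The summed FPKM of the 6 members was 10.3% and 4.88% of that of the 11 proteases in the controls and 16.7%, 15.1% and 13.3% with G-CSF, without overlap. The Cstb to Ctsb ratio was 0.0890 and 0.0478 in the controls and 0.383, 0.135 and 0.263 with G-CSF, without overlap. The Cstb to Ctsl ratio did overlap, at 3.40 and 0.851 in the controls and 3.72, 1.99 and 3.54 with G-CSF. Cst3 to Ctss ratios overlapped between groups, at 0.139 and 0.0996 against 0.117, 0.147 and 0.103. For cystatin F and its target cathepsin C, the Cst7 to Ctsc ratio was 0.376 and 0.135 in the controls and 0.153, 0.259 and 0.157 with G-CSF, also overlapping. The members in these ratios were chosen with the group difference known, so nothing is read from a lack of overlap. These are ratios of transcripts and not of proteins.

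**Figure D4:**
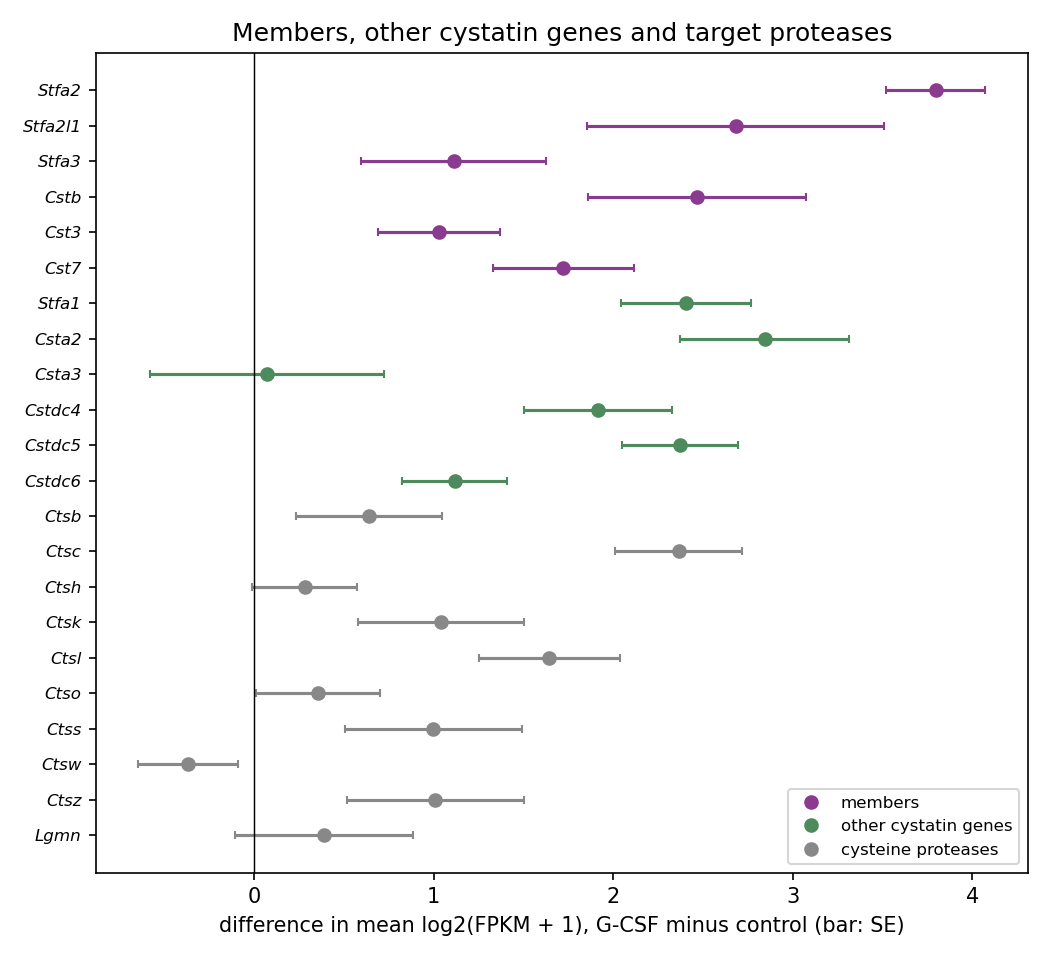
Difference in mean log2(FPKM + 1), G-CSF minus control, with its SE from limma (3 and 2 libraries), for the 6 members, the 6 other cystatin genes tested and the 10 cysteine proteases tested. Members range from 1.03 (Cst3) to 3.79 (Stfa2), and Ctsw is the only gene shown with a negative value.

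The genes most like each member were found by the root mean square difference of mean-centred log2(FPKM + 1) over the 5 libraries, among 6060 genes with a mean of at least 5 FPKM. With 5 libraries in 2 groups, many genes share such a profile, so likeness here is descriptive. Closest to Stfa2 were the metalloreductase gene Steap4 (0.22), the endothelial lipase gene Lipg (0.30) and the inducible nitric oxide synthase gene Nos2 (0.31). Nos2 had 0.0727 and 0.390 FPKM in the controls and 12.2, 23.5 and 9.61 FPKM with G-CSF. Stfa2l1 was closest to the matrix protein gene Tgfbi (0.26), the receptor gene Sirpb1b (0.28) and Snord89, a small nucleolar RNA (0.42). Cstb lay nearest to the cytokine receptor chain gene Il2rg (0.13), the lectin gene Clec4n (0.22) and the osteopontin gene Spp1 (0.22). For Cst3 the nearest were Vamp8 (0.04), a vesicle fusion protein gene, Actb (0.05) and Prkx (0.05), and for Cst7 the inhibitory receptor gene Pirb (0.05), Vmp1 (0.06) and Trim30a (0.10). Stfa3, from its few reads, was closest to Snora73b (0.21), Spred1 (0.23) and Mcoln2 (0.24). Between members, the smallest difference was 0.42 for Cst3 and Cst7 and the largest 1.64 for Stfa2l1 and Stfa3.

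The nearest protein-coding genes on each side of the members were compared for position. Beside the stefin A cluster, Fam162a measured 3.80 and 6.11 FPKM in the controls and 16.01, 12.3 and 13.8 FPKM with G-CSF, a difference of 1.36 ± 0.28 (SE; limma adjusted p = 0.255). On the other side, Cd86, a costimulatory ligand gene, measured 0.793 and 0.0788 FPKM against 3.81, 2.11 and 2.48 FPKM (1.42 ± 0.35, SE; limma adjusted p = 0.268). Neither passed. Csta1 and Ildr1 had at most 0.125 FPKM. Ccdc58 was at 1.65 and 1.54 FPKM in the controls and 1.86, 1.85 and 2.40 FPKM with G-CSF (0.22 ± 0.23, SE). Next to Cstb, Rrp1 was at 16.05 and 20.31 FPKM in the controls and 22.07, 20.34 and 24.03 FPKM with G-CSF (0.28 ± 0.25, SE). Pdxk, at 17.4 to 35.7 FPKM over all libraries, overlapped between groups. Agpat3, on the same side as Rrp1, was at 4.22 and 6.70 FPKM in the controls and 2.73, 2.64 and 3.40 FPKM with G-CSF (-0.70 ± 0.27, SE; limma adjusted p = 0.383), every G-CSF library below both controls. Trappc10 (7.98 to 15.6 FPKM) and Ilvbl (6.23 to 23.9 FPKM) overlapped between groups. Of the neighbours of Cst3, Zfp120 was the one in the table, at 2.24 and 0.330 FPKM in the controls and 3.32, 2.59 and 3.27 FPKM with G-CSF (0.96 ± 0.41, SE; limma adjusted p = 0.408). Next to Cst7, Zfp442, 3300002I08Rik and Vsx1 were under 1 FPKM in every library. There too, Apmap was at 10.7 and 9.15 FPKM in the controls and 11.6, 12.4 and 11.9 FPKM with G-CSF (0.25 ± 0.23, SE). Acss1 was at 8.02 and 9.64 FPKM in the controls against 3.95 to 4.37 FPKM with G-CSF (-0.93 ± 0.22, SE, limma adjusted p = 0.261). Ccdc58, Rrp1 and Apmap had every G-CSF library above both controls, as did 20.0% of all genes tested.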

How the data were processed

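Bulk RNA-seq of bone marrow monocytes, 3 libraries with and 2 without G-CSF, was deposited by the authors as FPKM per gene, 1 column per library, and every column belonged to 1 labelled sample. Genome build mm10 is named by the submitters' processing notes, whose only tool is Cell Ranger 5.0.1, a single-cell tool; the bulk aligner, counter, annotation, read length and strandedness are not given in the sources used here. Of 33559 rows, 89.6% matched 1 GENCODE M21 gene by symbol (for 5 stefin A genes by RefSeq position on the same build). FPKM times exon length was a whole number of steps, within 0.001 reads, in all libraries for 94.3% of these, which gave the reads. They sum to 2923791 to 6988850 per library; intervals (exact binomial, 95%) and the limit of 3 reads for a value of 0 cover counting error only.

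The 16791 genes with FPKM of 1 or more in 2 or more libraries were tested on log2(FPKM + 1) with limma 3.58.1 (R 4.3.3), using moderated variances that follow a mean trend, 3 residual degrees of freedom and a two-sided threshold of 0.05 on the p adjusted by Benjamini-Hochberg, after a check on simulated data. Replicates differed beyond sampling noise (chi-square over degrees of freedom of reads 7.88 to 115). The members, gene lists, marker lists and the rule for named genes (members, all tested list genes, the 3 nearest profiles leaving out predicted genes, segments, microRNAs and pseudogenes, and the 3 nearest protein-coding neighbours on each side; some that fall under the rule are not in the table) were chosen with earlier results of these data known. Single marker genes given with values were picked after their values were seen. The remaining erythroid marker is not reported here. Alternatives were pseudocounts of 0.1 and 5, no filter, a minimum FPKM of 5, quantile normalization, median centring, limma without a trend, a block for replicate number, leaving out single libraries, protein-coding genes only and voom on recovered reads. Sequences were read from RefSeq (GRCm38.p6) and GENCODE M21 with Python 3.11.15 and Biopython 1.88.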

Additional observations from a re-analysis of the deposited data

How the results depend on the processing

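No member changed direction in any of 89 refits, and 78 of these values moved by less than the spread between replicates. In 5 of the 6 members every G-CSF library lay above both controls. For those, changes of pseudocount, filter or trend and leaving out single libraries could not reverse the direction. The unchanged direction is therefore no support for the differences. The log2 difference of Stfa2 was 6.32 with a pseudocount of 0.1, 1.93 with a pseudocount of 5 and 5.49 by voom. That of Stfa3 was 1.89 with a pseudocount of 0.1 and 2.02 by voom, Cst7 1.00 with a pseudocount of 5, and Cst3 0.72 after quantile normalization; Stfa3 was not tested at a minimum FPKM of 5. With single libraries left out, the values spanned 3.62 to 3.94 for Stfa2, 1.32 to 4.04 for Stfa2l1, 0.46 to 1.76 for Stfa3, 1.95 to 2.98 for Cstb, 0.75 to 1.31 for Cst3 and 1.10 to 2.35 for Cst7. Without control replicate 1, 3 of 6 members kept their place in the control order.

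Over all genes, 1 was called higher and 0 lower. The count of higher genes was 0 with a pseudocount of 5, no filter, quantile normalization or median centring, 2 at a minimum FPKM of 5 or without a trend, 3 with a pseudocount of 0.1, 8 by voom and 30 for protein-coding genes only, with 2 and 3 lower in the last pair. With single libraries left out it spanned 0 to 2834 higher and 0 to 1977 lower, the upper ends without control replicate 1. Among other cystatin genes, 1 passed for protein-coding genes only, and 0 to 5 with single libraries left out. Among the proteases, 0 to 1 passed with single libraries left out. The replicate block called 0 genes; the groups share only a number (deviations correlated at -0.07 and -0.23 for same-numbered libraries), and the block gives the differences obtained without G-CSF replicate 3. Apart from fewer genes tested in the protein-coding fit, the cause of these shifts was not tested. Stfa3, Csta3, Cstdc6 and the control values of Stfa2 rest on few reads.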
